A study of Mus musculus with 6 samples.

Results

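In wild-type mouse retina, the genes of photoreceptor survival and trophic signalling ranged from about 105 RPKM for the rod-derived thioredoxin-like factor Nxnl1 to about 0.107 RPKM for the cytokine Cntf. RPKM counts reads per kilobase of transcript, relative to all mapped reads of the library. The 10 genes were chosen by symbol as known rod-derived factors, neurotrophins, cytokines and their receptors, and all 10 were found among the 15465 genes of the tables. Both thioredoxin-like factors, Nxnl1 and Nxnl2, stood among the first 332 genes by mean level, the 4 receptors lay between 1.89 and 20.0 RPKM, and the 4 ligands between 0.107 and 3.03 RPKM. The tissue was whole retina of Wild Type C57BL6/J mice, with no treatment named and no age given. There was 1 group of 3 biological replicates, each a pool of 5 mice with 2 technical replicates. Each biological replicate had 1 column of values, which was assigned to its technical replicate 1. Whether that column also holds technical replicate 2 cannot be told from the values. The grouping into biological replicates follows the sample titles. The source labels pair the samples differently, and every error given here assumes that the titles are right. Whether the pools came from separate litters or days is not stated, so the spread between them may be partly technical.

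Photoreceptors depend on factors made by their neighbours. Rods secrete the short product of Nxnl1, rod-derived cone viability factor, which binds basigin on cones and raises their glucose uptake, while the long product is a thioredoxin-like protein that protects against oxidation, and Nxnl2 is its paralogue. Muller glia and other retinal cells respond to neurotrophins through TrkB and to the cytokines of the CNTF and LIF family through receptor complexes that share the gp130 chain. Basic fibroblast growth factor and pigment epithelium-derived factor also protect photoreceptors after injury or in inherited degeneration, and the receptor kinase Mertk lets the pigment epithelium take up shed outer segments. The values are sums over all cells in the dissected tissue, in which fewer cells of a type and less RNA per cell cannot be told apart. They are also sums over all products of a gene: the short and long products of Nxnl1, or full-length and truncated TrkB, are not separated.

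The stretches before the starts of Nxnl1 and Nxnl2, the most abundant members, and of Cntf, the least abundant, are shown with core letters bound by photoreceptor transcription factors. They are the 250 bases before the RefSeq start in GRCm38.p6, 5′ to 3′ on the gene's strand. The Nxnl1 window is chr8:71566650-71566899 on the minus strand, that of Nxnl2 is chr13:51170775-51171024 on the plus strand, and that of Cntf is chr19:12765633-12765882 on the minus strand. Capitals mark TAATCC and TAATCT, core letters of the homeodomain factors CRX and OTX, and TGCTGA, a part of the site of the rod factor NRL, on either strand.
Nxnl1: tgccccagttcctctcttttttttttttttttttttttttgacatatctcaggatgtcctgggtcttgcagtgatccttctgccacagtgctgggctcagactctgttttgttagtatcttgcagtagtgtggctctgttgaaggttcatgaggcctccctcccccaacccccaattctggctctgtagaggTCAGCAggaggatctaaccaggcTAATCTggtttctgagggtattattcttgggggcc
Nxnl2: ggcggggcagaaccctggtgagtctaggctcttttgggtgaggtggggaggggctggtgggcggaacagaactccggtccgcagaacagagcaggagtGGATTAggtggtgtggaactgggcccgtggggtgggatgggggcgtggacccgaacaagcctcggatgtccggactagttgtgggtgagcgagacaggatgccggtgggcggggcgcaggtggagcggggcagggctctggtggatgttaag
Cntf: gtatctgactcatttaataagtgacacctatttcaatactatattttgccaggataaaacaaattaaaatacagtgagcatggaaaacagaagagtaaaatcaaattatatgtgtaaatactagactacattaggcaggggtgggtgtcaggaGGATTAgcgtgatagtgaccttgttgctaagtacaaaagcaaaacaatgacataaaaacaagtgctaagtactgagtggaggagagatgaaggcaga

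The Nxnl1 window held TAATCT, whose first base is 35 bases before the start, and TGCTGA on the other strand, where it reads TCAGCA. The Nxnl2 window held TAATCC on the other strand, which reads GGATTA there and begins 152 bases before the start. The Cntf window held the same TAATCC on the other strand, 97 bases before the start. Either core stood in a window of 4 of the 10 members (Lifr is the fourth) and of 14.6% of all genes. Among markers with a RefSeq window, it stood in 3 of 5 for rods, 3 of 6 for cones and 2 of 7 for Muller glia. These shares count genes, and a gene with more windows has more room for a match. The 10 members had 22 windows, against 32851 for all 27025 genes, and 12.8% of all windows held either core. Over all 32851 windows of this length, 6.25% held TAATCC, 7.31% held TAATCT and 16.1% held TGCTGA, with no overlap between the letters of different motifs in the windows shown. RefSeq windows were found for all 10 members, 22 in all, with 7 for Bdnf, 6 for Cntfr and 2 for Lifr. Apart from the matches above, the only other was TAATCT on the other strand in 1 window of Lifr. G and C made up 35.6% of the Cntf window and 47.6% of that of Nxnl1, against 65.6% for Nxnl2, 62.8% for Ntrk2, 63.6% for Mertk and a median of 52.4% over all windows.

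As to the tables as a whole, the depth behind the values is unknown, and a level of at least 1 RPKM in each replicate was reached by 8 of the 10 members, against 11978 of 15465 genes (77.5%). Fgf2 and Cntf were below it in every replicate. Levels of 10 RPKM or more in every replicate were reached by 3 members, Nxnl1, Nxnl2 and Cntfr, and by 33.0% of all genes. The median of the members' means was 5.15 RPKM and that of all genes was 6.26 RPKM. Markers of retina were present: Gnat1, the rod transducin subunit, ranked 2nd of all genes, and all 8 rod markers, all 8 cone markers and all 9 Muller glia markers were at 1 RPKM or more in every replicate. Genes listed as markers of tissue next to the retina were present as well. Whether their RNA came from such tissue or from retinal cells was not tested. All 11 lens markers were at 1 RPKM or more in every replicate, with the crystallin Cryaa ranked 6th of all genes, as were 12 of 14 pigment epithelium markers and 6 of 9 stroma markers.

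**Figure D1:**
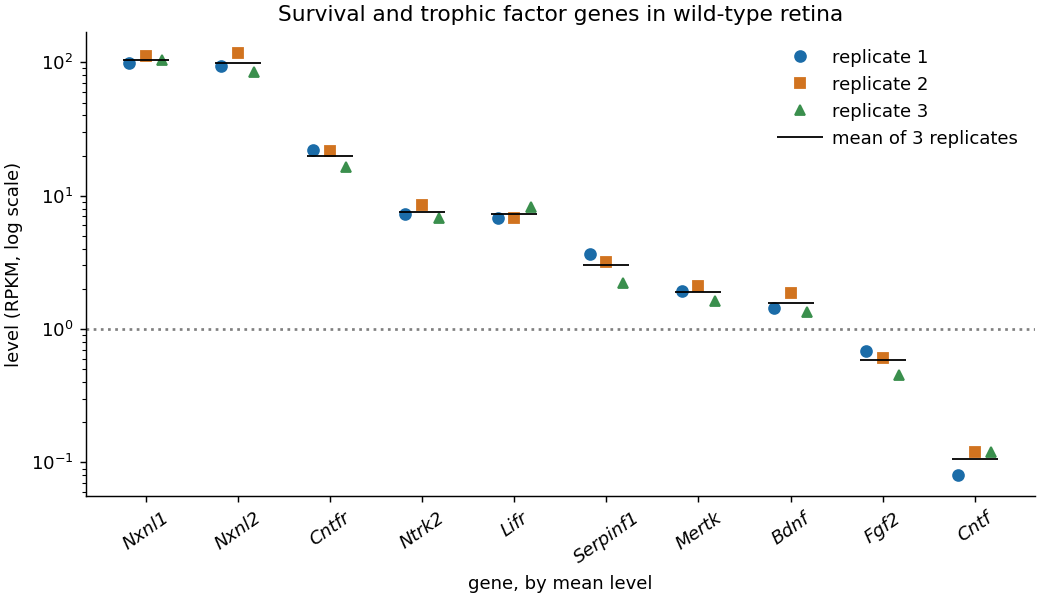
Level of each member in RPKM on a log axis, by replicate (coloured points), with the mean of 3 replicates (black line); the dotted line marks 1 RPKM. Nxnl1 and Nxnl2 sit near 100 RPKM, Fgf2 and Cntf lie below 1 RPKM in every replicate, and the replicates of Nxnl1 and Nxnl2, of Ntrk2 and Lifr and of Mertk and Bdnf overlap.

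In the order of the members by level, 6 of the 9 steps between neighbours were free of overlap between replicates. Nxnl1 and Nxnl2 overlapped, as did Ntrk2 and Lifr, and Mertk and Bdnf. The step from Nxnl2 to Cntfr was 4.91-fold, with the lowest Nxnl2 value at 85.11 RPKM and the highest Cntfr value at 21.95 RPKM. That from Cntfr to Ntrk2 was 2.62-fold and that from Lifr to Serpinf1 was 2.40-fold. Serpinf1 and Mertk came close without overlapping, at 2.23 RPKM for the lowest Serpinf1 value and 2.12 RPKM for the highest Mertk value. Below them, the steps were 2.43-fold from Bdnf to Fgf2 and 3.28-fold from Fgf2 to Cntf. Folds are on the scale of log2(RPKM + 0.1), which understates those that involve low genes.

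Nxnl1 had 99.34, 111.21 and 104.28 RPKM in replicates 1, 2 and 3, a mean of 105 ± 5.96 RPKM (SD, n = 3). It ranked 305th of 15465 genes by mean level, and the replicates differed by no more than 1.12-fold. Nxnl2 had 93.89, 116.87 and 85.11 RPKM, a mean of 98.6 ± 16.4 RPKM, and ranked 332nd. As deposited, replicate 2 was the highest for both, and Nxnl1 exceeded Nxnl2 in replicates 1 and 3 but not in replicate 2. The mean log2 ratio of Nxnl1 to Nxnl2 was 0.10 ± 0.18 (SD, n = 3), smaller than its spread over replicates. This near-equality holds per transcript length only: multiplied back by length, the log2 ratio was 1.33 ± 0.18, and Nxnl2 ranked 1332nd. For scale, the cone arrestin Arr3 had 105 ± 15.2 RPKM and the cone transducin subunit Gnat2 had 94.4 ± 14.3 RPKM. The third gene of the family, Nxn, which encodes nucleoredoxin, had 13.35, 13.36 and 9.11 RPKM and took 5.53% ± 0.936 of the RPKM of the 3 genes, against 48.9% ± 3.31 for Nxnl1.

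Bsg, which encodes basigin, the receptor of the short Nxnl1 product, was the highest gene of the list of thioredoxin-like factors and redox partners. It had 512.62, 542.12 and 356.39 RPKM, ranked 32nd of all genes, and exceeded Nxnl1 by 2.14 ± 0.32 on the log2 scale, a factor of 4.41, in 3 of 3 replicates (1.17 on the log2 scale when multiplied back by transcript length). Replicate 3 was lowest for Bsg but not for Nxnl1. Basigin is made by photoreceptors, pigment epithelium, vessels and other cells, which were not separated here. All 13 genes of that list were at 1 RPKM or more in every replicate, with a median of 12.3 ± 1.63 RPKM (SD, n = 3).

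Among the ligands, Serpinf1, which encodes pigment epithelium-derived factor, was the highest. It had 3.68, 3.18 and 2.23 RPKM in replicates 1, 2 and 3 (mean 3.03 ± 0.737 RPKM). Replicate 3 was the lowest and replicate 1 the highest. Pnpla2, a lipase reported as a receptor of this factor, had 9.49, 10.11 and 6.93 RPKM and exceeded Serpinf1 by 1.52 ± 0.16 on the log2 scale, 2.88-fold, in 3 of 3 replicates. All 6 genes of the list of PEDF and candidate receptors with a row were at 1 RPKM or more in every replicate, led by Pnpla2, the Wnt co-receptor Lrp6 (6.96 ± 0.556 RPKM) and Plxdc1 (3.06 ± 0.285 RPKM). The lowest of the list was Rpsa, also a ribosomal protein gene, at 1.63 ± 0.255 RPKM. Rpl26, another ribosomal protein gene, was at 0 RPKM in every replicate. The level of Rpsa, and its place in the list, is therefore uncertain, and the cause was not tested. Serpinf2, also listed, was not analysed here.

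Bdnf, which encodes brain-derived neurotrophic factor, had 1.44, 1.88 and 1.35 RPKM in replicates 1, 2 and 3. Its mean was 1.56 ± 0.284 RPKM. Replicate 2 was the highest, and the other two differed little. The related neurotrophin genes Ntf3 (0.340 ± 0.123 RPKM) and Ntf5 (0.0833 ± 0.0208 RPKM) were lower than Bdnf, and below 1 RPKM, in every replicate.

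Fgf2, which encodes basic fibroblast growth factor, had 0.69, 0.61 and 0.45 RPKM (mean 0.583 ± 0.122 RPKM). Replicate 3 was again the lowest. Fgf1, which encodes the acidic factor, had 8.56, 11.44 and 10.23 RPKM and exceeded Fgf2 by 3.90 ± 0.40 on the log2 scale, 15.0-fold, in 3 of 3 replicates. Both rows carry a symbol to which further digits make other symbols (Fgf10, Fgf22 and the like). Such symbols and the longer ones are together called digit-extended here. They held 623 (91.8%) of the 679 genes that varied between replicates in the test described below. They were 2088 of the 12562 genes tested, so most of them did not vary. The rows of Fgf1 and Fgf2 are taken as less certain than others for this reason, and the cause was not tested. A digit-extended gene that did vary, Fgf22, had 3.62, 3.04 and 0.09 RPKM, whereas the replicates of Fgf2 stayed within 1.53-fold of each other.

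Cntf, which encodes ciliary neurotrophic factor, was the lowest member. It had 0.08, 0.12 and 0.12 RPKM in replicates 1, 2 and 3, at values given to 2 decimals, so that 1 step of the last digit is a large part of the value. Its mean of 0.107 ± 0.0231 RPKM ranked 14550th of 15465 genes. Of the other ligands of the gp130 family with a row, Ctf1 (cardiotrophin 1) had 4.17 ± 0.812 RPKM and Clcf1 (cardiotrophin-like cytokine) 2.04 ± 0.336 RPKM. Lif, Osm, Il6 and Il11 were not analysed here.

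In the pairs compared for Cntf, Bdnf and Fgf2 (with Cntfr, Ntrk2 and Fgfr1), the receptor gene was more abundant than the ligand gene in every replicate. Cntfr, the ligand-binding chain of the CNTF receptor, had 21.95, 21.56 and 16.43 RPKM (mean 20.0 ± 3.08 RPKM) and was the highest receptor among the members. Replicate 3 was the lowest. It exceeded Cntf by 6.60 ± 0.35 on the log2 scale, a factor of 96.8, in 3 of 3 replicates. Since the added 0.1 is about as large as the Cntf value, the factor is 189 without it.

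Lifr, the LIF receptor chain that signals with Cntfr and gp130, had 6.85, 6.78 and 8.20 RPKM (mean 7.28 ± 0.80 RPKM). Here replicate 3 was the highest, opposite to Cntfr. Il6st, which encodes gp130, had 11.99, 10.74 and 12.22 RPKM and exceeded Lifr by 0.67 ± 0.12 on the log2 scale, 1.60-fold. Cntfr exceeded Lifr by 1.44 ± 0.38, 2.71-fold, with log2 ratios of 1.67, 1.65 and 0.99 in replicates 1, 2 and 3. Of the RPKM of the 3 chains, Cntfr took 51.2% ± 5.76, Il6st 30.01% ± 2.89 and Lifr 18.8% ± 3.00. Multiplied back by transcript length the order turns, with 61.3% ± 2.52 for Il6st and 23.8% ± 3.86 for Cntfr, and the log2 ratios to Lifr become 2.03 for Il6st and 0.65 for Cntfr. The signalling genes below them were expressed too, with Jak1 at 21.3 ± 1.51 RPKM and Stat3 at 15.0 ± 0.88 RPKM, the kinase and the transcription factor of this pathway. Of the 17 genes of the gp130 list with a row, 14 were at 1 RPKM or more in every replicate, 3 were below it in each, Cntf among them, and the median was 6.22 ± 0.515 RPKM.

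Ntrk2, which encodes TrkB, the receptor of BDNF, had 7.28, 8.56 and 6.79 RPKM (mean 7.54 ± 0.914 RPKM). Replicate 2 was the highest, as for Bdnf. Ntrk2 exceeded Bdnf by 2.21 ± 0.07 on the log2 scale, 4.64-fold, and this ratio differed little between replicates, at 2.26, 2.13 and 2.25. Ntrk2 also exceeded Ntrk3, which encodes the receptor TrkC, by 1.58 ± 0.06, 2.99-fold. In the list of neurotrophins and receptors, 9 of 12 genes were at 1 RPKM or more in every replicate, and the median was 4.81 ± 0.314 RPKM. Its highest genes were Furin (24.0 ± 2.90 RPKM), a protease that cleaves pro-neurotrophins, Sort1 (22.3 ± 0.784), the receptor of the pro-forms, and Ngfr (16.3 ± 2.81), the low-affinity receptor p75.

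Of the FGF receptors, Fgfr1 took 66.1% ± 1.20 of the RPKM, Fgfr2 18.02% ± 1.85, Fgfr3 11.2% ± 3.67 and Fgfr4 4.69% ± 0.717. Fgfr1 had 8.74, 7.79 and 6.59 RPKM and exceeded Fgf2 by 3.52 ± 0.07 on the log2 scale, 11.5-fold, with the same order of replicates in both. Fgfr4, at 0.52, 0.59 and 0.51 RPKM, was below Fgf2 in replicates 1 and 2. Of the 21 genes of the FGF list with a row, 12 were at 1 RPKM or more in every replicate and 6 were below it in each. Its highest genes were Fgf11 (29.6 ± 2.56 RPKM) and Fgf12 (15.0 ± 1.24), which encode intracellular relatives of the growth factors and have digit-extended symbols, and Spry2 (14.1 ± 5.09), an inhibitor of FGF signalling. A further 9 genes of that list were not analysed here.

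Mertk, the receptor kinase of outer segment uptake, had 1.92, 2.12 and 1.62 RPKM (mean 1.89 ± 0.252 RPKM), and was the lowest of the 3 receptors of its family. Tyro3 had 11.19, 9.98 and 8.08 RPKM and exceeded Mertk 4.94-fold, so that the log2 ratio of Mertk to Tyro3 was -2.31 ± 0.16. Axl had 2.77, 2.79 and 2.12 RPKM, so that its lowest value equalled the highest Mertk value. The log2 ratio of Mertk to Axl was -0.42 ± 0.08, a difference of 1.34-fold in the same direction in 3 of 3 replicates. Tyro3 took 68.6% ± 1.74 of the RPKM of the family, Axl 18.04% ± 0.653 and Mertk 13.3% ± 1.12. The bridging ligand Gas6 stood far above these receptors, with 149.6, 155.94 and 117.23 RPKM. The other listed ligand of the family, Pros1, did not, with 1.87, 2.01 and 1.7 RPKM, below Tyro3 and Axl in every replicate. In the list of these receptors, their ligands and outer segment uptake, 14 of 15 genes were at 1 RPKM or more in every replicate, and the highest were Tulp1 (512 ± 74.4 RPKM), a photoreceptor protein that has been reported as a ligand of Mertk, Mfge8 (172 ± 36.1), a bridge to integrins, and Gas6. The median was 8.20 ± 0.832 RPKM.

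**Figure D2:**
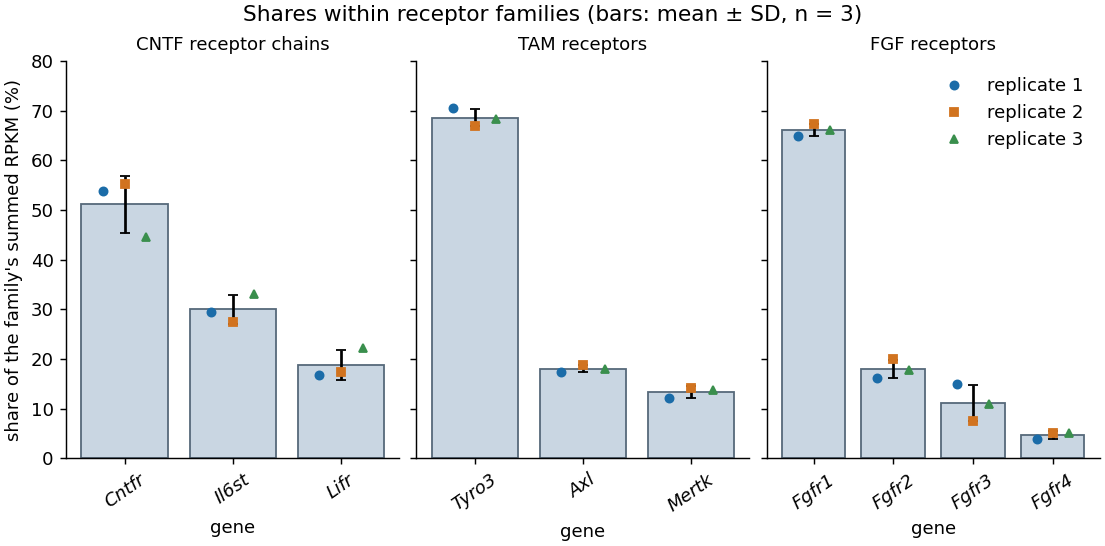
Share of each gene in the summed RPKM of its receptor family, in percent, with bars for the mean and SD of 3 replicates and points for the replicates. Cntfr, Tyro3 and Fgfr1 lead their families in every replicate per transcript length (Il6st leads Cntfr once multiplied back by length), and Mertk has 13.3% of the family of Mertk, Tyro3 and Axl.

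The list of GDNF and its relatives, other trophic factors of the retina, had 7 of 9 genes with a row at 1 RPKM or more in every replicate. The highest were the adhesion gene Ncam1 (31.7 ± 1.15 RPKM), which also binds GDNF, the ligand Nrtn (16.0 ± 3.81 RPKM), which encodes neurturin, and the receptor Gfra4 (12.7 ± 2.50 RPKM). Nrtn thus exceeded every ligand among the 10 members in each replicate, with 17.41, 18.82 and 11.63 RPKM. Gdnf was not analysed here. The median of the list was 7.95 ± 0.673 RPKM.

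**Figure D3:**
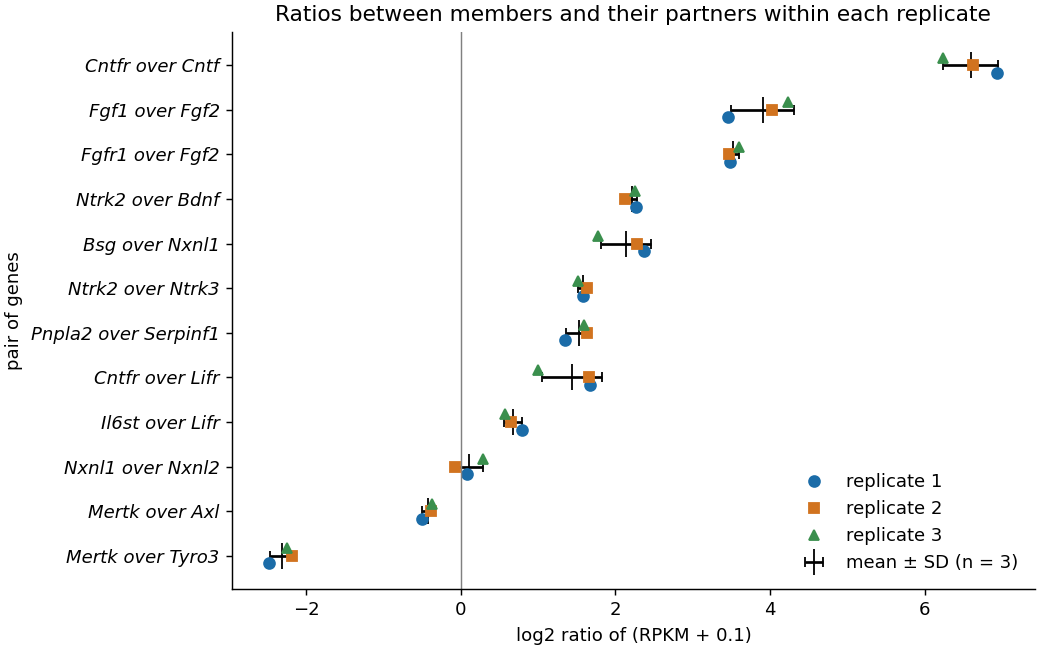
The log2 ratio of (RPKM + 0.1) between 2 genes within each replicate (points), with the mean and SD of 3 replicates (black). In 9 of 12 pairs the first gene is higher in every replicate, in the pairs of Mertk with Tyro3 and with Axl it is lower in every replicate, and Nxnl1 over Nxnl2 lies on both sides of 0.

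In all, 12 pairs of genes were compared within replicates. In 11 of them all 3 replicates had the same direction, the exception being Nxnl1 over Nxnl2. The exact sign-flip permutation test over 3 replicates (two-sided) cannot give a p under 0.25, and gave 0.25 for these 11 pairs and 0.5 for Nxnl1 over Nxnl2 (0.273 and 0.5 with Benjamini-Hochberg adjustment over the 12 pairs), so no pair can pass a threshold of 0.05. The SD over replicates was below the mean difference in all pairs but Nxnl1 over Nxnl2.

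Whether the members varied between pools was read from a test over all genes. Each gene's variance over replicates was set, in an F test, against limma's prior variance for genes of its level (robust prior). At a Benjamini-Hochberg adjusted p under 0.05, 679 of 12562 genes (5.41%) varied. Of the 8 members with a mean of 1 RPKM or more, 0 did. The adjusted p of these 8 members was between 0.993 and 0.995, and none had an unadjusted p under 0.05. With limma's non-robust prior, 0 members and 0 of all genes were called. The count over all genes is not stable, since 98 of 10474 genes (0.936%) varied once digit-extended symbols were left out, again with 0 members. With the filter lowered to 0.1 RPKM all 10 members entered and 0 varied. At such shares of all genes, 0 of 8 says nothing particular of the members. The SD on the log2 scale was 0.05 for Ntrk2, 0.08 for Nxnl1, 0.09 for Mertk, 0.12 for Nxnl2, 0.13 for Bdnf, 0.17 for Cntfr, 0.25 for Lifr and 0.31 for Serpinf1, against a median of 0.15 over all genes tested. A p above the threshold does not show that the pools were alike.

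Of the pathway lists, the FGF list alone held genes that varied. Fgf22 (3.62, 3.04 and 0.09 RPKM, adjusted p = 0.000239, limma) has a digit-extended symbol, and Spry2 had 17.82, 8.28 and 16.11 RPKM (adjusted p = 0.0337, limma), lowest in replicate 2. Without digit-extended symbols Spry2 (adjusted p = 0.000126, limma) and Fgfr3, with 2.01, 0.88 and 1.10 RPKM (adjusted p = 0.0326, limma), varied. Lens markers had the same low replicate as Spry2 and Fgfr3: all 11 were lowest in replicate 2 after scaling, 6 of the 11 varied (limma, all genes), and their sum was 4892, 3296 and 5204 RPKM after scaling. The part of lens RNA in these values was not tested. The other 6 lists had 0 genes called in either fit, out of 63 tested with all symbols.

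Serpinf1 had the largest spread of the 8 members tested, and it was lowest in replicate 3, as were 11 of 14 pigment epithelium markers and 8 of 9 stroma markers after scaling. Serpinf1 itself did not vary in the test over all genes (adjusted p = 0.993, limma). Replicate 3 was also the lowest after scaling for 35.7% of the 12562 genes tested. After scaling for the overall level of the replicate, Serpinf1 had 3.74, 2.91 and 2.40 RPKM in replicates 1, 2 and 3, a 1.56-fold range. The 14 pigment epithelium markers, of which 12 were at 1 RPKM or more in every replicate and none at 0 in all, summed to 572, 546 and 314 RPKM as deposited and ranged 1.72-fold after scaling. Among them, the pigment genes Dct and Pmel had 130.43, 115.44 and 52.57 RPKM and 62.68, 51.66 and 18.31 RPKM as deposited. After scaling, 1 of the 14 was lowest in replicate 1 (Rpe65) and 2 in replicate 2 (Lrat and Mitf). Rpe65, which has a digit-extended symbol, varied in another order, with 6.25, 20.06 and 6.74 RPKM as deposited (adjusted p = 0.0159, limma). The 9 stroma markers, of which 6 were at 1 RPKM or more in every replicate and none at 0 in all, summed to 59.1, 62.8 and 34.4 RPKM and ranged 1.62-fold. Summed markers of Muller glia (1.23-fold), vessels (1.30-fold), microglia (1.24-fold) and astrocytes (1.19-fold) were also lowest in replicate 3 after scaling. So was the sum of rod markers, with a range of 1.05-fold. Summed markers of cones (1.08-fold) and of retinal ganglion cells (1.04-fold) were instead lowest in replicate 1 and highest in replicate 3. The part of pigment epithelium or stroma RNA in the Serpinf1 values was not tested.

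Cntfr, Fgf2 and Mertk were also highest in replicate 1 and lowest in replicate 3 after scaling, but none of them varied in any fit. The share of all genes with this order is not given here. For Cntfr the scaled values were 22.3, 19.7 and 17.6 RPKM, for Fgf2 0.701, 0.559 and 0.483, and for Mertk 1.95, 1.94 and 1.74 RPKM. Replicates 1 and 2 of Mertk were thus nearly equal, and as deposited its highest was replicate 2 (2.12 RPKM). Of the 8 members with a mean of 1 RPKM or more, 6 were lowest in replicate 3 after scaling, as were 35.7% of all 12562 genes with such a mean. Nxnl1 and Lifr were the exceptions and were highest in replicate 3, at 112 and 8.81 RPKM after scaling. Lifr had 6.96, 6.21 and 8.81 RPKM after scaling and did not vary in the test over all genes (adjusted p = 0.993, limma). The part of other cell types in these differences was not tested either.

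**Figure D4:**
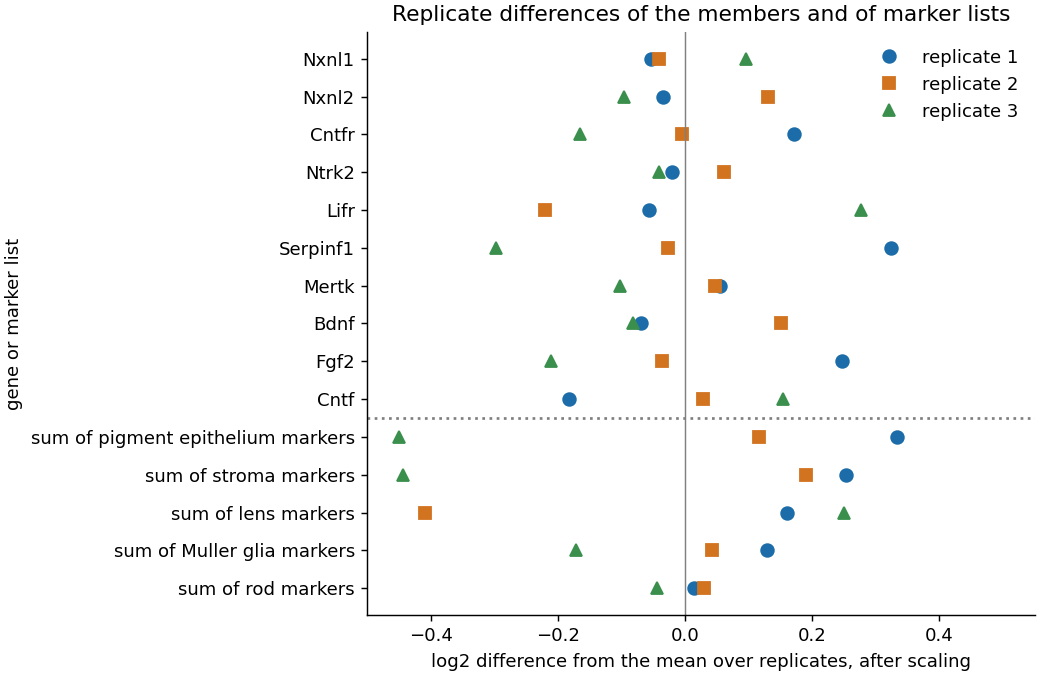
Log2 difference of each replicate from the mean over replicates after scaling, for the 10 members and, below the dotted line, for the summed RPKM of 5 marker lists. Replicate 3 is lowest for Serpinf1 (-0.30), for pigment epithelium markers (-0.45) and for stroma markers (-0.44), and highest for Lifr (0.28) and lens markers (0.25).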

How the data were processed

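RNA sequencing of wild-type retina comprised 6 samples and was analysed as 3 biological replicates with 1 deposited column each. Per the submitters' processing notes, the build was mm9 and the tools GSNAP and HTSeq, without versions. The authors deposited values taken here as RPKM, inferred from the values: multiplied by transcript length in kb they summed to 785290, 828409 and 728550 by replicate. They may equally be FPKM, and the depth is unknown. Of 15468 rows, 3 symbols stood on 2 rows and were kept once.

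Transcript lengths came from GENCODE M21 (98.5% of genes). The length behind a deposited value is not given in the sources used here. It matters where products differ: protein-coding transcripts of Ntrk2 run from 2284 to 8744 bases, those of Lifr from 577 to 9655 bases. GENCODE M21 and RefSeq are of another build (GRCm38.p6), so printed coordinates are those of the RefSeq windows only.

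Levels are printed as deposited. Scaled values were divided by trimmed means of log ratios (0.984, 1.09 and 0.931). Spread was tested on log2(RPKM + 0.1), at a mean of at least 1 RPKM. Each gene's variance was set against a robust trended prior variance from limma 3.58.1 under R 4.3.3 (with statmod 1.5.0). The F test on their ratio was built for this report and took the largest prior degrees of freedom for every gene. Its p-values are marked limma, and it was tried on simulated data. Ratios were taken within replicates with an exact sign-flip permutation test. Named were the members, the genes of the pairs, and from each list the 3 highest and those that varied. Family shares, and further genes given beside a member, were chosen after values were seen. The members, lists and pairs were chosen with earlier results of these data known. With 3 replicates of 1 condition, likeness of pattern between genes was not computed. Some genes of the lists are not reported here by name.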

Additional observations from a re-analysis of the deposited data

How the results depend on the processing

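No paired analysis was possible because there was 1 group. The 12 pair ratios kept the direction of their mean under every alternative tried, and with a replicate left out Nxnl1 over Nxnl2 ran from 0.00 to 0.19. A pseudocount of 1 lowered Cntfr over Cntf to 4.23, Fgf1 over Fgf2 to 2.80, Fgfr1 over Fgf2 to 2.45, Ntrk2 over Bdnf to 1.74, Ntrk2 over Ntrk3 to 1.30 and Pnpla2 over Serpinf1 to 1.29, and brought Mertk over Tyro3 to -1.89 and Mertk over Axl to -0.30. Without a pseudocount, chosen after seeing the data, Cntfr over Cntf was 7.56 and Fgfr1 over Fgf2 3.74. Multiplied back by transcript length, the log2 ratios were 7.47 for Cntfr over Cntf, 3.32 for Fgf1 over Fgf2, 2.96 for Fgfr1 over Fgf2, 2.48 for Ntrk2 over Bdnf, 2.03 for Il6st over Lifr, 1.82 for Ntrk2 over Ntrk3, 1.69 for Pnpla2 over Serpinf1, 1.33 for Nxnl1 over Nxnl2, 1.17 for Bsg over Nxnl1 and 0.65 for Cntfr over Lifr. On that scale Nxnl2 ranked 1332nd and Nxnl1 323rd. The genes varying between replicates numbered 0 with the non-robust prior (704 had an unadjusted p under 0.05), 98 when digit-extended symbols were left out and from 302 (without replicate 2) to 467 (without replicate 1) with a replicate left out, and the cause was not tested. No member varied under any of the 9 alternatives, and without replicate 2 Serpinf1 had an unadjusted p of 0.0281 (adjusted p = 0.635, limma).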
